A study of Mus musculus with 6 samples.

Results

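The genes described here drive or mark mitosis: 40 genes of the mitotic kinases and cyclins, the kinetochore, the spindle, cytokinesis and the condensed chromosome, out of 55416 genes in the count files. They were chosen by symbol for their roles in mitosis, with earlier results of these data known. The rule itself names no measured value, and all 40 were found in the files. Expression was measured in cells labelled as oligodendrocyte precursors, the proliferating progenitors of myelinating glia, from mouse cortex at postnatal day 11. This identity is that of the labels, and only part of the precursor markers given below was detected. The 3 Ift88 cKO samples came from Pdgfra-Cre:Ift88 fl/fl; RosaEYFP mice, in which Cre under the Pdgfra promoter deletes floxed Ift88, whose product carries cargo along the growing cilium and without which no cilium forms. The 3 Ift88 control samples came from Pdgfra-Cre:Ift88 fl/wt; RosaEYFP mice, which carry the same Cre and EYFP reporter and 1 floxed copy of Ift88 beside a wild-type copy. Each sample pooled the cells of 4 to 6 mice, so the values describe pools, and the cells in which Cre was active within a pool are not given. The sex of the mice, the way the cells were isolated and the floxed exons are not given in the sources used here. The series title names proliferation as a process under study, and the comparison of cKO with control asks whether transcripts of dividing cells differ when cilia are deleted.

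Entry into mitosis is driven by the kinase CDK1 bound to A- and B-type cyclins, helped by the Polo and Aurora kinases. Chromosomes are then condensed, attached to the spindle through their kinetochores and held back by the spindle checkpoint until the anaphase-promoting complex, a ubiquitin ligase, destroys cyclin B and securin. The central spindle and a contractile ring finally divide the cell. Most of these genes are transcribed periodically, with a peak in G2 and M, through a promoter element named the cell cycle genes homology region (CHR) together with CCAAT boxes bound by the factor NF-Y. In the postnatal brain, oligodendrocyte precursors are the main dividing cells outside the germinal zones, and transcripts of these genes are widely used as a readout of proliferation.

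Most members carry these elements in their promoters, which the choice by symbol did not use. Promoter windows of 300 bases, 250 before and 50 from the annotated start, were available from RefSeq (GRCm38.p6) for 35 of the 40 genes. The CHR core TTTGAA, or its reverse complement, was present in at least 1 window of 27 of these 35 genes, against 20.2% of the 27025 genes in the table, and in 17.9% of its 32851 windows. CCAAT, or its reverse complement, was present for 26 of 35 members, against 41.1% of all genes and 37.4% of windows. Both were present for 23 of 35, against 8.97% of all genes and 6.95% of windows. Matches were counted on both strands, matches of the 2 motifs can share end bases, and a match describes the sequence without showing a binding site. The 8 windows below were chosen to show a kinase, a cyclin, the anaphase-promoting complex, a motor, the topoisomerase and the steadiest member beside 1 gene with neither motif. Each runs 5′ to 3′ on the coding strand from 100 bases before the start to 20 bases from it, and capitals mark matches of either motif on either strand. Coordinates of these windows are GRCm38.p6, whereas gene positions elsewhere in the text are those of the count files, GRCm39.
Cdk1, chr10:69352893-69353012, minus strand: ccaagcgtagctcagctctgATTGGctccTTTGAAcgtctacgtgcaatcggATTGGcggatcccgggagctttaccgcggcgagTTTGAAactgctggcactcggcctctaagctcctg
Ccnb2, chr9:70421535-70421654, minus strand: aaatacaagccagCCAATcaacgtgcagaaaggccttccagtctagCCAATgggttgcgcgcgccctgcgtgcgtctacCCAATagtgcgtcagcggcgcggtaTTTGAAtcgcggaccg
Cdc20, chr4:118437324-118437443, minus strand: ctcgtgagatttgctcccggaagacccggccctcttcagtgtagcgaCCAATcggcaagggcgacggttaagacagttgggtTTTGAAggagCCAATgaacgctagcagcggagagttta
Ube2c, chr2:164769829-164769948, plus strand: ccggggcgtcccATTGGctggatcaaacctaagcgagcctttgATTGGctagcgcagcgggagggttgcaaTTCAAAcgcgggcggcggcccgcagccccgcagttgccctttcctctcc
Kif11, chr19:37376282-37376401, plus strand: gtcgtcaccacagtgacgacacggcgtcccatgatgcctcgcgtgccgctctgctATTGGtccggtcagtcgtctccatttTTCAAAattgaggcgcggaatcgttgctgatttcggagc
Top2a, chr11:99024170-99024289, minus strand: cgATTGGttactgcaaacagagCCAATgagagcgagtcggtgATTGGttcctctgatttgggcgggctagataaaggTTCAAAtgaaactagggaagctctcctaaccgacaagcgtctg
Bub3, chr7:131560270-131560389, plus strand: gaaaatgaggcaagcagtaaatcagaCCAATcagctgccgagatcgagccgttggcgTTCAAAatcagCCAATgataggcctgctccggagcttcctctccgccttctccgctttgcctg
Nusap1, chr2:119618198-119618317, plus strand: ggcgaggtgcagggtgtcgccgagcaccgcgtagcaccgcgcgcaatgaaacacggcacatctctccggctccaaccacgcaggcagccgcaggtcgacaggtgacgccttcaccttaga
Counted with the start base as 1 and the base before it as -1, the leftmost base of the CHR core, on either strand, lay at -71 and -15 in Cdk1, 5 in Ccnb2, -18 in Cdc20, -29 in Ube2c, -19 in Kif11, -23 in Top2a and -43 in Bub3.

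Total counts were 11773548 to 13909236 in 5 libraries and 568509 in cKO replicate 2. Levels are given as CPM, which are counts scaled to a common library total. Where no count was seen, the level could still reach 5.28 CPM in that shallow library and 0.216 to 0.255 CPM in the others (3 counts, counting error only). Ift88 had 1, 0 and 305 counts in the cKO libraries and 143, 32 and 167 in the controls, so its 3' tag did not follow the labels in cKO replicate 3. Of 15 markers of oligodendrocyte precursors, Sox10, Tnr, Pcdh15, Gpr17 and Neu4 had no count in any library. In each of the 5 deeper ones 4 reached 20 counts (Ptprz1, C1ql1, Vcan and Cspg5). Olig1 and Olig2 had 32 and 67 counts in cKO replicate 3 and none in any other library. Pdgfra had 155, 0 and 121 counts in the cKO libraries and 0, 59 and 56 counts in the controls. The list summed to 317, 7.04 and 295 CPM in the cKO libraries and to 395, 583 and 241 CPM in the controls. The 13 neuron markers summed to 2172 to 7386 CPM in the cKO libraries and to 1851 to 6690 CPM in the controls, all with a count in some library. Markers of astrocytes and radial glia, which include the progenitor genes Vim, Nes and Sox2, summed to 876 to 2769 CPM in the cKO libraries and to 2997 to 7308 CPM in the controls. Of the 7 choroid plexus markers, Kl had no count, and the list summed to 473 to 46421 CPM in the cKO libraries and to 12.9 to 211 CPM in the controls. Of 7 endothelial markers 4 had no count (Flt1, Cdh5, Ly6c1 and Esam), and the list summed to 0 to 84.3 CPM in the cKO libraries and to 2.12 to 55.5 CPM in the controls. Of 8 microglia markers 4 had no count (Cx3cr1, Tmem119, C1qa and Aif1), with sums of 58.6 to 679 CPM in the cKO libraries and 23.5 to 77.9 CPM in the controls. Of 10 markers of myelinating oligodendrocytes 5 had no count (Mog, Mag, Mobp, Opalin and Ermn), with sums of 208 to 588 CPM in the cKO libraries and 94.6 to 567 CPM in the controls. These markers thus do not establish that the pools were mainly oligodendrocyte precursors, and markers of neurons and of astrocytes and radial glia had the higher sums in every deeper library. The part of these other cells in the levels below was not tested. In pooled cells, fewer cells in mitosis and less RNA per mitotic cell cannot be told apart.

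Most members could be measured, but 4 of the best known could not. Mki67, which encodes the Ki-67 antigen, the cyclin gene Ccnb1 and the kinetochore genes Cenpe and Cenpf had 0 counts in all 6 libraries. A further 7 (Cenpa, Ndc80, Nuf2, Bub1b, Tacc3, Kif20b and Smc2) had counts in too few libraries to be tested, which left 29 members for the test across all libraries and 34 when cKO replicate 2 was left out. At least 20 counts were reached by 22, 2 and 28 members in cKO replicates 1, 2 and 3 and by 19, 27 and 34 members in control replicates 1, 2 and 3. Only 11 of the 40 reached this level in all 5 deeper libraries: Ccna2, Ccnb2, Plk1, Cdc20, Ube2c, Bub1, Bub3, Birc5, Nusap1, Ect2 and Top2a. The values tended to be either 0 or well above it. Of the 200 member values in the 5 deeper libraries, 55 were 0, 15 lay between 1 and 19 counts and 130 were at 20 counts or more. Over all 20294 genes with a count in these libraries, 23.7% of values were 0 and 15.2% lay between 1 and 19, against 27.5% and 7.5% for the members.

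**Figure D1:**
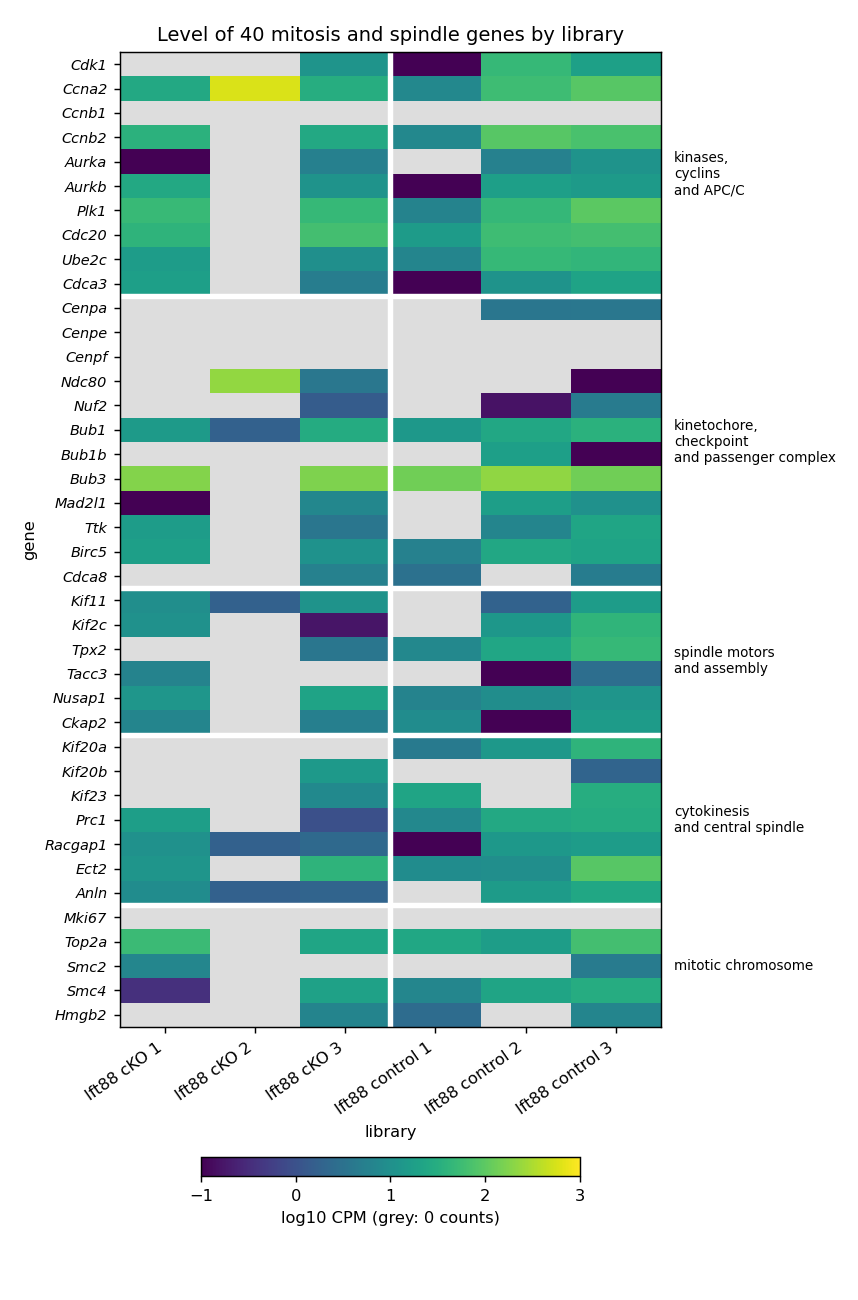
Level of each of the 40 mitosis and spindle genes (rows, grouped by role) in the 3 Ift88 cKO and 3 Ift88 control libraries (columns), as log10 of CPM, with grey for 0 counts. cKO replicate 2 is grey for 34 of 40 genes, and the rows of Mki67, Ccnb1, Cenpe and Cenpf are grey throughout. Control replicate 1 is the lowest of the 3 controls, shown as grey or as a darker colour, for 27 of 40 genes.

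The summed level of the mitotic genes did not separate the genotypes, and its spread between control pools was larger than the difference between the group means. The 40 genes summed to 596, 828 and 600 CPM in the cKO libraries and to 302, 861 and 1152 CPM in the controls, or 675 ± 133 against 771 ± 432 CPM (SD, n = 3 each). All 3 cKO values lay within the range of the controls. In cKO replicate 2, however, Ccna2 alone gave 71.8% of the sum and Ndc80 a further 227 CPM. Its 828 CPM, which enter the cKO mean and SD, therefore do not describe the list as a whole. Without cKO replicate 2 the cKO mean was 598 CPM, and cKO replicates 1 and 3 were nearly equal. Bub3 made up a large part of the sum, and without it the other 39 genes gave 416, 828 and 430 CPM in the cKO libraries and 164, 641 and 1017 CPM in the controls. With and without Bub3, control replicate 1 held the lowest summed level of the 6 libraries and control replicate 3 the highest. The difference of the group means, cKO minus control, was -96.6 CPM, and it became -173.5 CPM without cKO replicate 2, -331 CPM without control replicate 1 and 93.4 CPM without control replicate 3.

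Among the controls the difference ran through most of the list. Control replicate 1 was the lowest of the 3 control pools for 27 of the 40 members, control replicate 2 for 5 and control replicate 3 for 1 (Bub3), with 7 ties at 0. Control replicate 3 was the highest for 28 members, control replicate 2 for 8 and control replicate 1 for 0, with 4 ties. Among the 29 tested members, control replicate 1 was lowest for 79.3%, compared with 31.8% of all 12833 tested genes, and control replicate 3 was highest for 75.9%, compared with 38.9%. An absence in control replicate 1 (0 to 3 counts, with at least 20 in the other 2 controls) was seen for 10 of 29 tested members and 3.97% of all tested genes. The same pattern in control replicate 2 was seen for 4 of 29 members and 7.22% of genes, and in control replicate 3 for 0 of 29 and 2.99%. The median coefficient of variation between the control pools was 90.1% for the tested members and 51.0% for all tested genes. The members were less often well counted, since 51.7% of them reached 20 counts in all 3 controls, against 76.4% of all tested genes. The part of low counts in the wider spread and the absences was not tested. The sum of the markers of astrocytes and radial glia was also lowest in control replicate 1 of the controls, at 2997 CPM against 7308 and 5491 CPM in control replicates 2 and 3. Vim, with 25869, 75861 and 60962 counts in control replicates 1 to 3, made up most of that sum. The other markers of the list were split. Gfap followed Vim, with 1825, 3585 and 3298 counts, while Slc1a3 was highest in control replicate 1, with 3379, 2857 and 900 counts. The summed neuron markers were highest in control replicate 1, at 6690 against 5446 and 1851 CPM. The part of these other cells in the difference between pools was not tested.

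**Figure D2:**
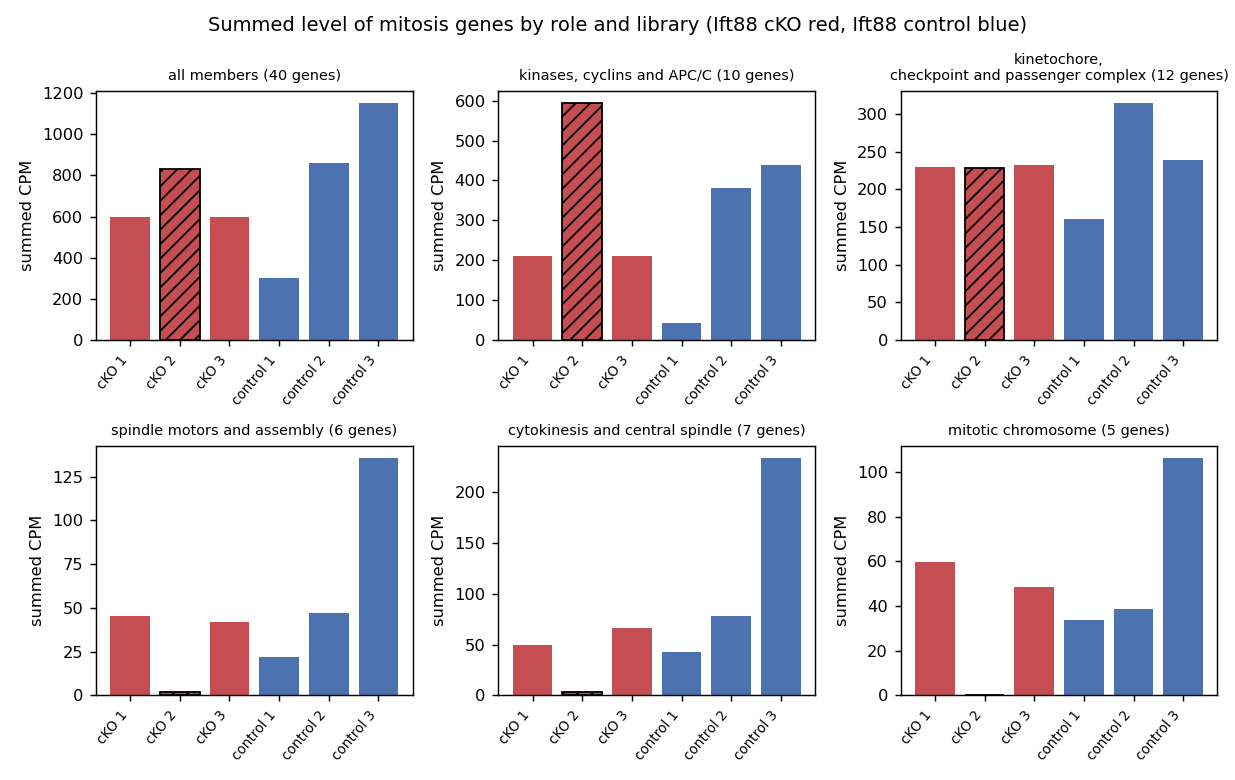
Summed CPM of all 40 genes and of each role group in each library, with the 3 Ift88 cKO libraries in red (the shallow cKO replicate 2 hatched) and the 3 Ift88 controls in blue, all axes from 0. For all members cKO replicates 1 and 3 sit at 596 and 600 CPM between control replicate 1 at 302 CPM and control replicate 3 at 1152 CPM.

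**Figure D3:**
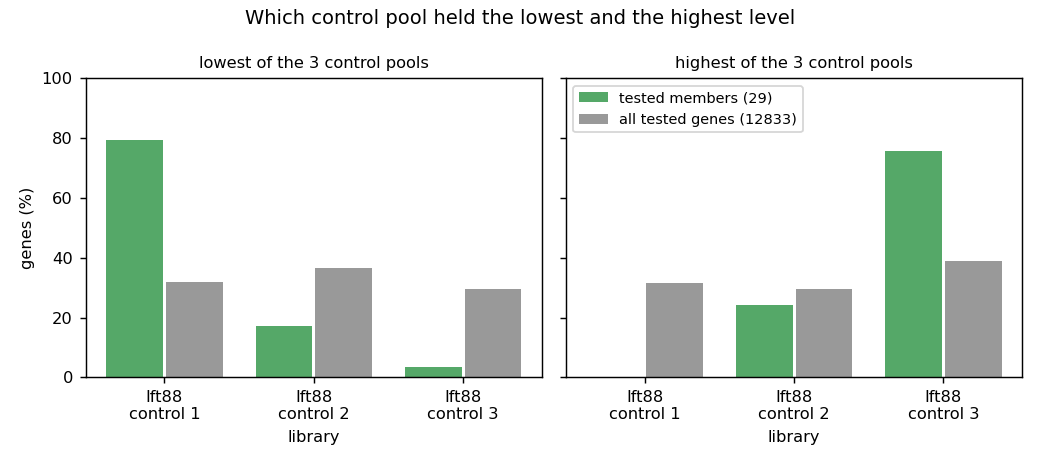
Share of genes (in %) for which each of the 3 Ift88 control pools held the lowest (left panel) or the highest (right panel) CPM, for the 29 tested members in green and all 12833 tested genes in grey. Control replicate 1 is lowest for 79.3% of members and 31.8% of genes, and control replicate 3 is highest for 75.9% and 38.9%.

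No member differed between cKO and control samples at a Benjamini-Hochberg adjusted p of 0.05 by the quasi-likelihood test of edgeR. Over all 6 libraries 0 of 29 tested members passed as higher and 0 of 29 as lower, where 1 of 12833 genes (0.00779%) passed in each direction. Without cKO replicate 2, 0 of 34 passed in either direction, where 0 of 14562 genes (0%) passed as higher and 1 (0.00687%) as lower. At an unadjusted p under 0.05, 1 member was lower (Kif20a; 1.53% of all genes) and 0 were higher (1.3% of all genes). Without cKO replicate 2 it was again Kif20a alone, where 3.03% of all genes were lower and 3.06% higher. Limma-voom called 0 members and DESeq2 called 1, Kif20a. This gene had 0 counts in every cKO library and passed the filter on low counts only through the controls. A p that misses the threshold does not show that levels were equal, and the standard errors of the fold changes were wide. Every cKO value lay below every control value for 2 of 29 tested members, Kif20a and Tpx2, where it held for 11.1% of all genes. Without cKO replicate 2 this held for the same 2 of 34 (12.6% of genes), and the opposite order held for 1, Nusap1 (13% of genes).

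The fitted fold changes were mostly below 0, as were those of all genes. With all 6 libraries 25 of 29 tested members had a log2 fold change below 0 with a median of -0.96, against 66.3% of all genes with a median of -0.44. Without cKO replicate 2 the count was 21 of 34 with a median of -0.44, against 52.1% of genes and a median of -0.06. The choice of control pools moved these values as well. Without control replicate 3 the count was 18 of 30, with a median of -0.43 beside -0.37 over all genes, and without control replicate 1 it was 29 of 35, with a median of -1.12 beside -0.41. Members enter these counts only if they pass the filter on low counts, so the counts describe the tested members and not the whole list.

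**Figure D4:**
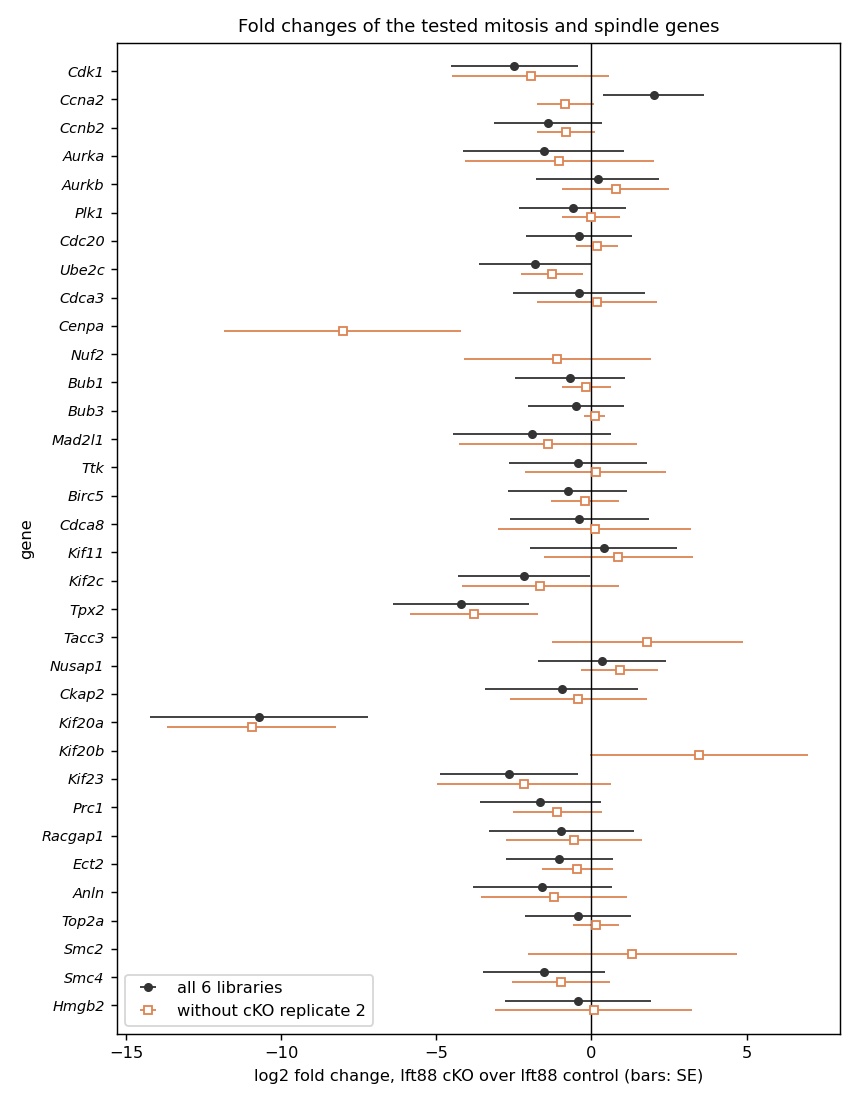
Log2 fold change of Ift88 cKO over Ift88 control for each tested member (rows), with all 6 libraries (filled circles, 29 genes) and without cKO replicate 2 (open squares, 34 genes), bars showing the standard error. Bars of most genes cross 0, and Kif20a, which had 0 counts in every cKO library, lies farthest from 0. When cKO replicate 2 is left out, Ccna2 moves from above to below 0. Cdc20, Cdca3, Bub3, Ttk, Cdca8, Top2a and Hmgb2 then move from below to above 0.

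The kinases, cyclins and regulators of the anaphase-promoting complex (10 genes) summed to 212, 595 and 212 CPM in the cKO libraries and to 43.5, 382 and 438 CPM in the controls. All 9 measured genes of this group were lowest in control replicate 1 among the controls. Ccnb2 (ENSMUSG00000032218, chromosome 9, 70314974 to 70328829), which encodes cyclin B2, a partner of CDK1, had 514, 0 and 304 counts in cKO replicates 1 to 3 and 102, 1147 and 973 counts in control replicates 1 to 3. The 2 deeper cKO libraries thus lay between control replicate 1 and the other controls. Its level was 20.9 ± 19 CPM in cKO samples (31.4 CPM without cKO replicate 2) and 56.4 ± 43.3 CPM in controls (SD, n = 3), a log2 fold change of -1.39 (SE 1.75; edgeR quasi-likelihood test, Benjamini-Hochberg adjusted p = 1). Plk1 (ENSMUSG00000030867, chromosome 7, 121758662 to 121769096), the Polo-like kinase of mitotic entry, had 689, 0 and 561 counts in the cKO libraries and 84, 590 and 1349 counts in the controls. Within the controls its highest level was 16.2 times its lowest, while cKO replicates 1 and 3 held 49.5 and 47.6 CPM. The log2 fold change of Plk1 was -0.60 (SE 1.72) with all libraries and -0.01 (SE 0.93) without cKO replicate 2 (edgeR adjusted p = 1 in each).

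Ccna2 (ENSMUSG00000027715, chromosome 3, 36619014 to 36626299), which encodes cyclin A2 of S phase and G2, had 355, 338 and 365 counts in the cKO libraries and 101, 728 and 1245 counts in the controls. The near-equal cKO counts are unequal levels, because the 338 counts of the shallow cKO replicate 2 amount to 595 CPM, beside 25.5 and 31.0 CPM in cKO replicates 1 and 3. With that library the log2 fold change was 2.0 (SE 1.64), and without it -0.84 (SE 0.92), edgeR adjusted p = 1 in each, so its direction rests on 1 library. Exosc9 overlaps 29.4% of the final 500 exon bases of Ccna2, and reads in that stretch are left out under the counting command. Cdk1, the master kinase of mitosis, had 0, 0 and 136 counts in the cKO libraries and 1, 604 and 255 counts in the controls, so it was near 0 in 1 deeper library of each genotype. Aurka, the Aurora kinase of the spindle poles, was also at 0 or 1 count in cKO replicate 1 and control replicate 1, with 1, 0 and 64 counts in the cKO libraries and 0, 72 and 155 counts in the controls. Aurkb, the Aurora kinase of the chromosomal passenger complex, had 362, 0 and 132 counts in the cKO libraries and 1, 233 and 207 counts in the controls.

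Cdc20, the activator of the anaphase-promoting complex in mitosis, was among the steadier genes of this group, with 547, 0 and 755 counts in the cKO libraries and 214, 742 and 880 counts in the controls. Ube2c, the ubiquitin-conjugating enzyme that serves this complex, had 229, 0 and 117 counts in the cKO libraries and 90, 613 and 589 counts in the controls, a log2 fold change of -1.83 (SE 1.81) and of -1.27 (SE 1.0) without cKO replicate 2. Cdca3, a trigger of mitotic entry, had 252, 0 and 59 counts in the cKO libraries and 1, 145 and 284 counts in the controls. Control replicate 1 was the lowest control for Cdc20, Ube2c and Cdca3, and the cKO and control values of each overlapped.

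The kinetochore, checkpoint and passenger genes (12 genes) summed to 230, 229 and 232 CPM in the cKO libraries and to 160, 315 and 238 CPM in the controls. The near-equal cKO sums have different make-up, since Bub3 gave 180 and 170 CPM in cKO replicates 1 and 3, while Ndc80 gave 99.2% of the sum in cKO replicate 2. Bub3 (ENSMUSG00000066979, chromosome 7, 131161951 to 131173624), which binds kinetochores with the checkpoint kinase BUB1, was the steadiest member in the deeper libraries, with 2502, 0 and 2004 counts in the cKO libraries and 1883, 2802 and 1829 counts in the controls. Its highest control level was 1.63 times its lowest, and without cKO replicate 2 the log2 fold change was 0.10 (SE 0.35, edgeR adjusted p = 1). With all libraries it was -0.49 (SE 1.54, edgeR adjusted p = 1). At the level of cKO replicates 1 and 3, 99.5 counts of Bub3 would fall in a library of the depth of cKO replicate 2, where 0 were counted.

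Bub1, the checkpoint kinase itself, had 209, 1 and 337 counts in the cKO libraries and 187, 314 and 486 counts in the controls, or 15.1 ± 13.4 against 24.7 ± 11.1 CPM (SD, n = 3), with a log2 fold change of -0.68 (SE 1.77, edgeR adjusted p = 1). Birc5, which encodes survivin of the passenger complex, had 252, 0 and 130 counts in the cKO libraries and 77, 316 and 286 counts in the controls, a log2 fold change of -0.77 (SE 1.91, edgeR adjusted p = 1). Both genes had their lowest deeper-library level in control replicate 1. Ttk, the checkpoint kinase MPS1, had 229, 0 and 44 counts in the cKO libraries and 0, 84 and 309 counts in the controls. Mad2l1, which encodes the checkpoint protein MAD2, had 1, 0 and 83 counts in the cKO libraries and 0, 221 and 141 counts in the controls. Cdca8, which encodes borealin of the passenger complex, had 0, 0 and 67 counts in the cKO libraries and 43, 0 and 65 counts in the controls. These 3 genes were at 0 or 1 count in at least 1 deeper library, and their cKO and control values overlapped.

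The other kinetochore genes were seen in few libraries. Cenpa, the centromeric histone H3 variant, had 0 counts in all cKO libraries and 0, 47 and 52 counts in the controls. Pooled over each group its level was at least 21.7-fold lower in cKO samples against a limit of 3 counts over the group, or 21.2-fold without cKO replicate 2, but control replicate 1 was at 0 as well. Bub1b, which encodes the checkpoint protein BUBR1, had 227 counts in control replicate 2, 1 in control replicate 3 and 0 in the other 4 libraries. Its pooled bound of at least 49.9-fold lower therefore rests on a single pool. Ndc80, the kinetochore subunit that binds microtubules, had 0, 129 and 45 counts in the cKO libraries and 0, 0 and 1 count in the controls, a pooled ratio of 265 (95% exact interval 46.9 to 10525), and of 70.0 (11.9 to 2827) without cKO replicate 2. Its partner Nuf2 had 0, 0 and 17 counts in the cKO libraries and 0, 2 and 63 counts in the controls. Ndc80 and Nuf2, 2 subunits of 1 complex, were thus high in different libraries. Such intervals and bounds cover counting error only, and reads that PCR copied from 1 molecule count several times in them.

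The spindle motors and assembly factors (6 genes) summed to 45.3, 1.76 and 41.8 CPM in the cKO libraries and to 22.2, 47.0 and 136 CPM in the controls. Tpx2, the factor that activates Aurora A and nucleates spindle microtubules, had 0, 0 and 44 counts in the cKO libraries and 100, 294 and 647 counts in the controls. All cKO values of Tpx2 lay below all control values, at 1.25 ± 2.16 against 26.0 ± 20.3 CPM (SD, n = 3), or 1.87 CPM in cKO samples without cKO replicate 2. The log2 fold change of Tpx2 was -4.20 (SE 2.19; edgeR quasi-likelihood test, Benjamini-Hochberg adjusted p = 1), and its adjusted p ran between 0.40 and 1 under 13 alternatives. Kif2c, a kinesin that removes tubulin from microtubule ends at centromeres, had 147, 0 and 2 counts in the cKO libraries and 0, 166 and 556 counts in the controls, a log2 fold change of -2.18 (SE 2.13, edgeR adjusted p = 1). Its groups overlapped because control replicate 1 was at 0. Nusap1, which bundles spindle microtubules, had 175, 0 and 248 counts in the cKO libraries and 83, 115 and 163 counts in the controls. Both deeper cKO libraries lay above all controls in CPM, at 12.6 and 21.1 against 6.08, 9.01 and 12, with a log2 fold change of 0.34 (SE 2.07), or 0.91 (SE 1.24) without cKO replicate 2 (edgeR adjusted p = 1 in each).

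Kif11, the kinesin that pushes spindle poles apart, had 131, 1 and 135 counts in the cKO libraries and 0, 23 and 221 counts in the controls. cKO replicates 1 and 3 held 9.42 and 11.5 CPM, between control replicate 2 at 1.80 and control replicate 3 at 16.3 CPM. Ckap2, a spindle microtubule protein, had 91, 0 and 63 counts in the cKO libraries and 120, 1 and 215 counts in the controls. Tacc3, which crosslinks spindle fibres, had 86, 0 and 0 counts in the cKO libraries and 0, 1 and 38 counts in the controls. For all 3 genes the 2 groups overlapped.

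The cytokinesis and central spindle genes (7 genes) summed to 49.2, 3.52 and 66.2 CPM in the cKO libraries and to 42.3, 78.2 and 234 CPM in the controls. Kif20a (ENSMUSG00000003779), the mitotic kinesin that carries the passenger complex to the central spindle, had 0 counts in every cKO library and 59, 173 and 549 counts in the controls. Pooled over each group its level was at least 171-fold lower in cKO samples against a limit of 3 counts over the group, or at least 167-fold without cKO replicate 2. The fitted log2 fold change was -10.72 (SE 3.51; edgeR quasi-likelihood test, Benjamini-Hochberg adjusted p = 0.796), which depends on how counts of 0 are handled and is not a bound. DESeq2 called it lower (adjusted p = 0.0101), and its adjusted p ran between 0.0101 and 1 under the 12 alternatives that tested it. With 0 counts in every cKO library, Kif20a passed the filter on low counts only through the controls. Its place among the tested members thus rests on the group where it was high, which limits what these p-values show. The final 500 exon bases overlap entirely (100%) with Cdc23, a subunit gene of the anaphase-promoting complex, which had 737, 0 and 1093 counts in the cKO libraries and 457, 668 and 1262 counts in the controls. Reads in a stretch shared by 2 genes are left out under the counting command, so the counts of Kif20a do not come from its last 500 bases.

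Its relative Kif20b, a kinesin of late cytokinesis, had 0, 0 and 163 counts in the cKO libraries and 0, 0 and 26 counts in the controls. The 2 kinesins were therefore detected in different libraries, with control replicate 3 the only one where both passed 20 counts. Kif23, the motor subunit of centralspindlin, had 0, 0 and 92 counts in the cKO libraries and 298, 0 and 414 counts in the controls. Racgap1, the other subunit of centralspindlin, had 145, 1 and 27 counts in the cKO libraries and 1, 173 and 217 counts in the controls. At 20 counts or more, Kif23 was thus detected without Racgap1 in control replicate 1, and Racgap1 without Kif23 in control replicate 2 and cKO replicate 1.

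Ect2, the exchange factor that switches on RhoA at the division plane, had 169, 0 and 463 counts in the cKO libraries and 120, 119 and 1240 counts in the controls. Its level was 17.2 ± 20.1 against 36.5 ± 47.5 CPM (SD, n = 3), with a log2 fold change of -1.03 (SE 1.74, edgeR adjusted p = 1) that became 0.89 without control replicate 3. Anln, which encodes the ring scaffold anillin, had 124, 1 and 23 counts in the cKO libraries and 0, 198 and 328 counts in the controls. Prc1, the bundler of the central spindle, had 247, 0 and 11 counts in the cKO libraries and 100, 334 and 399 counts in the controls, with a log2 fold change of -1.65 (SE 1.95, edgeR adjusted p = 1), and its final 500 exon bases overlap entirely with Rccd1. In Ect2, Anln and Prc1 the cKO and control values overlapped.

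The mitotic chromosome genes (5 genes) summed to 59.7, 0 and 48.7 CPM in the cKO libraries and to 33.6, 38.7 and 106 CPM in the controls. Top2a (ENSMUSG00000020914, chromosome 11, 98883769 to 98915015), the topoisomerase that untangles sister chromatids, had 728, 0 and 266 counts in the cKO libraries and 332, 216 and 875 counts in the controls. It did not follow the order of most members, since control replicate 2 was its lowest control. Its log2 fold change was -0.43 (SE 1.70) with all libraries and 0.15 (SE 0.76) without cKO replicate 2 (edgeR adjusted p = 1 in each). Smc4, an ATPase of condensin, had 5, 0 and 231 counts in the cKO libraries and 92, 278 and 413 counts in the controls, a log2 fold change of -1.53 (SE 1.97, edgeR adjusted p = 1). Its partner Smc2 had 97, 0 and 0 counts in the cKO libraries and 0, 0 and 62 counts in the controls, so only in control replicate 3 did both reach 20 counts. Hmgb2, a chromatin protein abundant in dividing progenitors, had 0, 0 and 76 counts in the cKO libraries and 35, 0 and 91 counts in the controls, a log2 fold change of -0.43 (SE 2.34, edgeR adjusted p = 1). For Top2a, Smc4, Smc2 and Hmgb2 the cKO and control values overlapped.

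The library that set several of these fold changes, cKO replicate 2, held 2 members at 20 counts or more, Ccna2 with 338 and Ndc80 with 129 counts. The other 38 members had 4 counts together there (1 each of Bub1, Kif11, Racgap1 and Anln). At the mean level of cKO replicates 1 and 3, these 38 genes would give 323 counts at its depth. At that level 23 members would have 3 counts or more, and 18 of the 23 had 0. Cdc20 would have 29.4, Plk1 27.6 and Top2a 21.3 counts there, and each had 0, whereas Ccna2 would have 16.1 and had 338. The choroid plexus markers summed to 46421 CPM in the same library, 26120 of its counts being Ttr, and their part in these values was not tested.

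Other genes of mitosis, 118 genes in 5 lists, gave no call either. None of the 74 tested passed as higher or as lower by the same test of edgeR, where 1 of 12833 genes (0.00779%) passed in each direction, and 0 of 88 passed without cKO replicate 2. At an unadjusted p under 0.05, 2 were higher (1.3% of all genes) and 3 lower (1.53% of all genes). Their median log2 fold change was -0.40 (all genes -0.44), or 0.12 without cKO replicate 2 (all genes -0.06). They summed to 3375, 4609 and 3416 CPM in the cKO libraries and to 2716, 2656 and 3532 CPM in the controls. Control replicate 1 was the lowest control for 32 of the 74 tested, beside 23 of the 29 tested members.

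Centromere and outer kinetochore genes had 15 of 31 tested, with 0 called and 7 without a count. Dsn1, a subunit of the kinetochore MIS12 complex, had 0 counts in the cKO libraries and 44, 42 and 38 counts in the controls, and Cenpk, a subunit of the inner kinetochore network, had 0 against 56, 43 and 146 counts. Their fitted log2 fold changes, which are no bounds, were -8.11 (SE 3.0) for Dsn1 and -9.05 (SE 3.73) for Cenpk (edgeR adjusted p = 1 for each). For both genes, picked for the smallest p of their list, every control was above every cKO library, an order that held for 11.1% of all tested genes. Both passed the filter on low counts only through the controls, the group where they were high. Subunits and partners of the anaphase-promoting complex, which also works in cells that have left the cycle, were better detected: 13 of 20 reached 20 counts in each of the 5 deeper ones, and 0 of 17 tested were called. Anapc1 and Cdc27, 2 large subunits of the complex, had 310 and 493 counts in cKO replicate 2, and their log2 fold changes of 1.83 (SE 1.53) and 1.32 (SE 1.28; edgeR adjusted p = 1 for each) became 0.72 and -0.35 without it.

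Cohesin, condensin and separase genes had 0 of 14 tested called. They summed to 1244, 1479 and 1180 CPM in the cKO libraries and to 802, 677 and 922 CPM in the controls. Every cKO sum thus lay above every control sum, an order that was not tested. Stag2 alone gave 462, 3.52 and 328 CPM in the cKO libraries and 148, 188 and 207 CPM in the controls. The median log2 fold change of the list was 0.25, or 0.49 without cKO replicate 2. Pttg1, which encodes securin, had 264, 352 and 118 counts in the cKO libraries and 1, 213 and 268 counts in the controls, and Smc3, a cohesin ATPase, had 622, 305 and 467 against 927, 338 and 339 counts. Their log2 fold changes of 4.08 (SE 1.87) and 2.30 (SE 1.69; edgeR adjusted p = 1 for each) became 0.30 and 0.08 without cKO replicate 2. The other kinesin, spindle and centrosome genes had 0 of 14 called, with Plk4, the kinase of centriole duplication, at 0, 215 and 80 counts in the cKO libraries against 0, 94 and 46 in the controls, and Ckap5, a microtubule polymerase, at 1223, 467 and 568 against 1373, 200 and 638. Their log2 fold changes of 5.06 (SE 2.08) and 2.48 (SE 1.5; edgeR adjusted p = 1 for each) became -0.10 and 0.34 without cKO replicate 2. Entry control and transcription genes had 0 of 14 called. Cks1b, a small subunit of cyclin-dependent kinases, had 0, 0 and 90 counts in the cKO libraries against 78, 501 and 307 in the controls, and Pbk, a mitotic kinase, had 0, 0 and 79 against 68, 313 and 269. Their log2 fold changes were -3.07 (SE 2.10) and -2.80 (SE 2.28; edgeR adjusted p = 1 for each), or -2.58 and -2.31 without cKO replicate 2. Foxm1, the transcription factor of G2 and M phase genes, had 0, 2 and 106 counts in the cKO libraries and 0, 199 and 216 in the controls, and was singled out after its values were seen.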

How the data were processed

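RNA tags next to the 3' end of transcripts were sequenced after library preparation with the QuantSeq kit, per the labels' protocols. The deposited files hold unnormalized read counts for each gene, which the authors made with featureCounts 2.0.0 from exons of Ensembl 104 on GRCm39, per the file headers. The command in those headers has no strand option and no option for reads that overlap several genes, so counting was unstranded and such reads were left out. STAR, FastQC and DESeq2 are named per the submitters' processing notes, without versions.

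The 12833 of 55416 genes that passed filterByExpr were normalized by TMM. Ift88 cKO was compared with Ift88 control (n = 3 each) in edgeR 4.0.16 under R 4.3.3, by glmQLFTest on a robust glmQLFit, with Benjamini-Hochberg adjustment over all genes tested and a threshold of 0.05. The standard error was the log2 fold change divided by the square root of F. CPM used total counts without TMM. Scaling by RLE or by the upper quartile, limma-voom (limma 3.58.1), DESeq2 1.42.0, 2 other filters, the replicate number as a block and leaving out each library were tried as alternatives. Symbols came from a table that named 52083 of 55416 identifiers, and promoters from RefSeq.

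Members, role groups and lists were chosen with earlier results of these data known. Full statistics were given for the 3 tested members of each role with the highest control counts and any with an unadjusted p under 0.05, and for the 2 genes of each wider list with the smallest p. Values of Ube2c, Kif11 and other members fall outside that rule because every member is accounted for. Nothing states that pools came from separate litters, so p-values measure the spread between these pools. A detection level of 20 counts was used. Figures were drawn with matplotlib 3.10.9.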

Additional observations from a re-analysis of the deposited data

How the results depend on the processing

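The number of members called was 0 under 11 of 13 alternatives and 1 under the other 2. DESeq2 called Kif20a (log2 fold change -8.11, adjusted p = 0.0101), and the test without a filter called Ndc80 (adjusted p = 0.0435), with 129 of its 174 cKO counts in cKO replicate 2. Genes called higher and lower in the whole table numbered 1 and 1 in the main test, 14 and 2 with RLE, 0 and 0 with upper-quartile scaling, 7 and 52 with DESeq2, 6 and 2 with limma-voom and 22 and 1 without a filter. They numbered 2 and 1 at 5 CPM or more in 3 samples and 0 and 1 with the replicate block, under which 0 members were called. The samples were treated as unpaired. Same-numbered libraries had deviations correlated at 0.079, 0.052 and 0.012 (across 12833 genes, which are not independent replicates), and each correlated best with its own number. With n = 3 per group these low values cannot settle whether the numbers pair the samples. Leaving out single libraries gave 0 to 6 higher and 1 lower. Of 15 members with full statistics under 13 alternatives, 12 values changed sign, none past the threshold. Bub1 was at 0.027 with upper-quartile scaling and Nusap1 at -0.33 with the replicate block. Over the fits that left out 1 library, log2 fold changes ranged from -0.84 to 2.59 for Ccna2, -1.12 to 0.29 for Plk1, -0.97 to 0.10 for Bub3, -0.39 to 0.91 for Nusap1, -2.40 to 0.89 for Ect2, -1.59 to 0.29 for Top2a and -8.03 to 0.75 for Hmgb2. The cause was not tested. The median over tested members stayed below 0 under all 13 alternatives, and so did that of all genes, which upper-quartile scaling moved to -0.01 and the block to -1.23. Under limma-voom the member median no longer lay below that of all genes, at -0.71 against -0.75. In cKO replicate 2 a count of 0 is compatible with levels of up to 5.28 CPM, which limits what that library shows of low genes.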
